A study of Mus musculus with 9 samples.

Results

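Hdac9 and 6 genes related to it by function, Hdac4, Hdac5, Hdac7, Mef2a, Mef2c and Mef2d, were described in differentiating mouse neuroblastoma cells. They are 7 of the 22180 genes measured by a probe set that the array annotation assigns to 1 gene, and each was taken by its gene symbol. Where a gene had several such probe sets, the one with the highest mean over all arrays was used. Hdac9 was chosen by its measured difference between 24 h and 4 h, where its signal was far lower at 24 h, so that difference is given as a description, with no test. The other 6 were added as its relatives, not for their values.

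The cells were N1E-115, an established line from a mouse neuroblastoma of the sympathetic lineage that extends neurites when serum is withdrawn. Every sample had been transfected with 80 nM siRNA, either a control siRNA or a pool of siRNAs against Hmgn5, which encodes a nucleosome-binding protein. After a night without serum the cells were placed on laminin, and total RNA of whole cells was taken 4 h or 24 h into differentiation. The 9 arrays formed 3 groups of 3, namely cells with the control siRNA at either time and cells with Hmgn5 siRNA at the later time, 24 h. Every group is therefore transfected, serum-starved and on laminin, and no untransfected or undifferentiated sample and no Hmgn5 siRNA sample at 4 h was among those analysed. Nothing in the labels says that the 3 samples of a group were separate cultures. The p-values therefore reflect the variation among these samples alone, and that variation may be technical.

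Class IIa histone deacetylases, the family of Hdac4, Hdac5, Hdac7 and Hdac9, have a weak catalytic domain of their own and act largely as corepressors that bring a corepressor complex with Hdac3 to DNA-bound transcription factors. Their best known partners are the MEF2 factors, MADS-box proteins related to SRF. Calcium-dependent and other kinases phosphorylate class IIa deacetylases, 14-3-3 proteins then hold them in the cytoplasm, and MEF2 target genes are released from repression. In neurons this switch couples electrical activity to transcription, and in muscle it controls differentiation. MEF2 factors also bind the Hdac9 gene itself in muscle, where Hdac9 is known as a MEF2 target that feeds back on MEF2.

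Because the Hdac9 signal is what sets this family apart here, the DNA before its start sites is shown. The RefSeq promoter table (GRCm38.p6, 250 bases before to 50 after each start) held all 7 genes with 13 start sites. Hdac9 had more than one, and only the 250 bases before a start are printed, 5′ to 3′ on the gene's strand. The first lies at chr12:34917096-34917345, minus strand. The second, further along the gene, lies at chr12:34528890-34529139, minus strand, with capitals marking letters that differ from the MEF2 consensus at no more than 1 position.
Hdac9 first start: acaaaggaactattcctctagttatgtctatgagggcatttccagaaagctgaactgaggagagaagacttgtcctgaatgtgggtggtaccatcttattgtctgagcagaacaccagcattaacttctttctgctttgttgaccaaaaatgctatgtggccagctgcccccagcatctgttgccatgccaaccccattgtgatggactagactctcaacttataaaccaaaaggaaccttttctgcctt
Hdac9 second start: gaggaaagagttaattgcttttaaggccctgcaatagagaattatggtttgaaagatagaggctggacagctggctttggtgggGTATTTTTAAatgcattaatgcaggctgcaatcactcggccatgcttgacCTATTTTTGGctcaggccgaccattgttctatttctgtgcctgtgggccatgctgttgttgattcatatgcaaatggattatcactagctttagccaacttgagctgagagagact

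Neither Hdac9 promoter held a full match to the 10-letter MEF2 consensus, which reads the same on both strands. The second held a pair of near matches, beginning 166 and 116 bases before the start, and the first held none. Such a pair was not particular to Hdac9. The promoter of the second Mef2c start site also held a pair, beginning 105 and 94 bases before it. That of the first Mef2c start site held 1, beginning 146 bases before it. Such runs are common: 26.9% of the 32851 promoters in the table had a near or a full match, and 3.19% had a full match. Among the 13 promoters of the 7 genes 2 had a full match, those of Hdac5 and Mef2a, given here in 30-base windows with the match in capitals. The SRF site, the CArG box, was in none of the 13 and in 1.63% of all promoters. A match is a run of letters, not a measured binding site.
Hdac5, chr11:102230173-102230202, minus strand: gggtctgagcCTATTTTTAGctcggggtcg
Mef2a, chr7:67372841-67372870, minus strand: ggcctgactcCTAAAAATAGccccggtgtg

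Values are RMA expression levels on the log2 scale, so a difference of 1 is a doubling of signal. Pearson's r between arrays was 0.978 to 0.995 across probe sets, and at least 0.991 among pairs without control 4 h replicate 2, which stood apart and had an array weight of 0.198 against 0.789 to 1.74 for the others. Hmgn5, the siRNA target, was at 4.71 ± 0.06 with control siRNA and 3.49 ± 0.04 with Hmgn5 siRNA at 24 h (mean ± SD, n = 3 each; limma adjusted p = 0.00367). These are dim signals, above 40.0% to 42.5% of probe sets in the control 24 h arrays and 13.8% to 16.1% with Hmgn5 siRNA. Of 11 measured markers of sympathetic neuroblastoma, such as Th and Dbh for catecholamine synthesis, 10 exceeded 80% of probe sets in mean signal, although Ddc, the decarboxylase of that pathway, did not. The median marker exceeded 98.0% of probe sets, against 55.9% for skeletal and cardiac muscle (10 genes), 55.4% for fibroblast (7), 48.6% for glia (4), 41.5% for endothelium (6) and 34.2% for leukocyte (6). No marker of those 5 other cell types passed the limma test over time or between siRNAs. Of the 11 neuroblastoma markers 2 passed it over time, where 4.34% of all genes did. They were Th and Dbh, higher at 24 h than at 4 h (differences of 0.53 and 0.80, adjusted p = 0.0188 and 0.00534). The median time difference of the 11 was 0.19, with 9 above 0 and 2 below. In whole-culture RNA, fewer cells of a kind and less RNA per cell cannot be told apart.

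Hdac9 had by far the widest range of signal among the 7 genes. With control siRNA at 4 h its 3 arrays read 8.35, 8.60 and 8.38 log2 units. At 24 h the control arrays read 7.11, 7.22 and 6.90. With Hmgn5 siRNA at 24 h they read 7.24, 7.34 and 7.24. Every 24 h array was thus more than a log2 unit below every control 4 h array, and the nearest of them were 1.13 apart in the control cells. Group means were 8.44 ± 0.14, 7.08 ± 0.16 and 7.27 ± 0.06 (SD, n = 3 each).

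In control cells the Hdac9 difference between 24 h and 4 h was −1.37 log2 units (SE 0.10), which leaves 38.8% of the 4 h signal, a 2.58-fold lower level. Of the 22180 genes, 2 had a difference further below 0, Mt2, a metallothionein, at −1.80 and Rny1, a small cytoplasmic RNA, at −1.49, named after their values were seen. For scale, the median size of the time difference over all genes was 0.09. This is the contrast by which Hdac9 was chosen, in which 4.34% of all genes were called (adjusted p under 0.05). The Hdac9 probe set does not separate its isoforms, among them the short form that lacks the deacetylase domain. Leaving out any array, or using any of the other settings tried, kept the difference between −1.44 and −1.28. Only array weights, cyclic loess, median centring and leaving out a control array could move it. The other settings leave the Hdac9 group means as they are, so their equal value was fixed in advance.

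**Figure D1:**
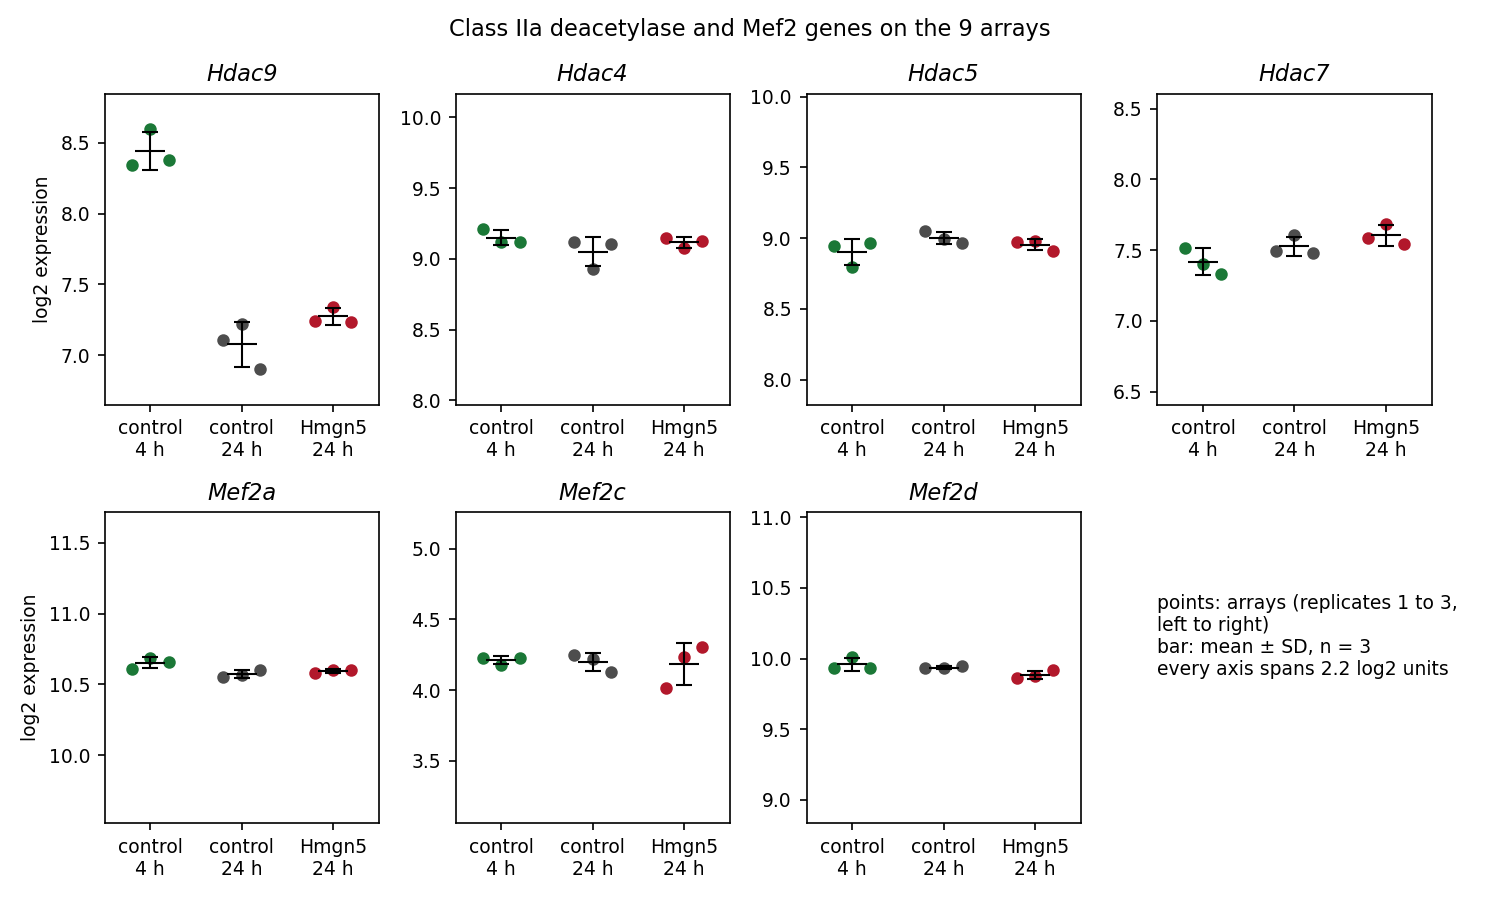
Each panel plots 1 gene's RMA level (log2 units, vertical axis) on the 9 arrays by group, with points for arrays and bars for the group mean ± SD (n = 3). Hdac9 sits between 8.35 and 8.60 in the control 4 h arrays and between 6.90 and 7.34 in all 24 h arrays, while the other 6 genes stay nearly level.

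**Figure D2:**
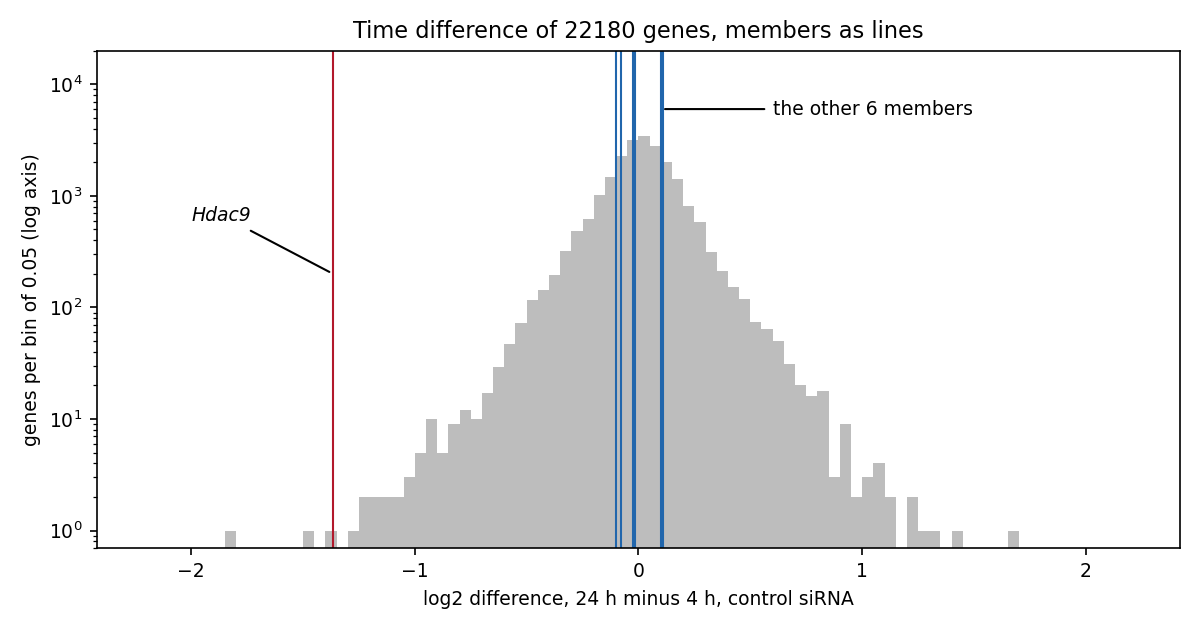
Histogram of the difference between 24 h and 4 h in control cells (log2 units, horizontal axis) over 22180 genes, with the number of genes per bin on a log axis and the 7 genes as lines. Hdac9 at −1.37 lies in the far lower tail and the other 6 lie between −0.10 and 0.11, inside the bulk around the all-gene median of 0.02.

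The other class IIa deacetylases did not pass the test over time. Hdac4, which represses MEF2-dependent and RUNX2-dependent genes and is abundant in brain, read 9.21, 9.12 and 9.12 at 4 h, 9.12, 8.93 and 9.11 in control cells at 24 h, and 9.15, 9.08 and 9.13 with Hmgn5 siRNA. Its control arrays at 24 h lay below those at 4 h by a gap of only 0.0044, with a difference of −0.10 (95% interval −0.25 to 0.05, adjusted p = 0.505).

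Hdac5, an activity-regulated repressor that leaves the nucleus after calcium entry, read 8.95, 8.80 and 8.96 at 4 h. Its control arrays at 24 h were at 9.05, 8.99 and 8.97, and its Hmgn5 siRNA arrays at 8.97, 8.98 and 8.91. The time groups of the control cells were apart by 0.0019, with 24 h above 4 h by 0.10 (95% interval −0.05 to 0.24, adjusted p = 0.476). The lowest of the 9 values was control 4 h replicate 2, the array with the low weight.

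Hdac7, best known for repressing MEF2 targets in endothelium and thymocytes, read 7.52, 7.40 and 7.33 at 4 h, 7.49, 7.60 and 7.48 in control cells at 24 h, and 7.59, 7.69 and 7.54 with Hmgn5 siRNA. The control groups overlapped, and the time difference was 0.11 (95% interval −0.05 to 0.27, adjusted p = 0.479). The lowest bound of the intervals of these 3 genes was −0.25, while Hdac9, chosen for its fall, was at −1.37. Only 2.41% of all genes differed over time by more than 0.5 in size. Lying far from the Hdac9 value is therefore usual and not particular to these 3.

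The MEF2 factors were measured at very different signals. Mef2a, a broadly expressed MEF2 factor that acts in neuronal survival and synapse development, read 10.61, 10.69 and 10.66 at 4 h. It read 10.55, 10.57 and 10.60 in control cells at 24 h and 10.58, 10.60 and 10.60 with Hmgn5 siRNA. The control groups were apart by 0.0055, and the time difference was −0.08 (95% interval −0.20 to 0.04, adjusted p = 0.502). Mef2a exceeded 96.7% to 97.1% of probe sets on each array.

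Mef2d, the MEF2 factor most tied to neuronal survival through calcineurin and Cdk5, read 9.93, 10.01 and 9.93 at 4 h and 9.93, 9.93 and 9.95 in control cells at 24 h. With Hmgn5 siRNA it read 9.86, 9.88 and 9.92. The control groups overlapped, and the time difference was −0.02 (95% interval −0.14 to 0.10, adjusted p = 0.877), with the sign turning to 0.02 when each array was centred on its median. A dimmer probe set that Mef2d shares with another gene, at 5.99 to 6.51, was not used. Its time difference was −0.19.

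Mef2c, needed for cortical neurons, heart and muscle, was dim. It read 4.23, 4.18 and 4.23 at 4 h, 4.25, 4.22 and 4.13 in control cells at 24 h, and 4.01, 4.23 and 4.30 with Hmgn5 siRNA, and it exceeded only 27.0% to 33.3% of probe sets. Its time difference was −0.01 (95% interval −0.19 to 0.16, adjusted p = 0.949), and 0.02 after median centring. A second Mef2c probe set was dimmer still, at 3.63 to 3.84, with a time difference of −0.04. At such signals a change in Mef2c RNA may be hard to see, although Hmgn5, also dim, was called between siRNAs (4.71 and 3.49). Mef2b lay only on probe sets shared with Borcs8 and was not used.

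Of the 6 relatives of Hdac9, 0 were called over time, where 4.34% of all genes were, and their limma adjusted p-values ran from 0.476 to 0.949. At an unadjusted p under 0.05 the count was also 0, where 18.0% of all genes had such a p. The groups of arrays did not overlap for 3 of the 6 (Hdac4, Hdac5 and Mef2a), where 21.3% of all genes had such groups, and those 3 gaps were all under 0.01. Their median difference was −0.02 beside 0.02 over all genes. Above 0 were 2 and below it 4, a split that turned to 4 above and 2 below after median centring, through Mef2c and Mef2d.

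The relatives varied little over the 9 arrays. The SDs of Hdac7, Mef2c, Hdac4, Hdac5, Mef2d and Mef2a exceeded those of 38.8%, 22.6%, 17.1%, 13.3%, 3.33% and 3.30% of genes. For some genes several arrays held one identical value to 6 decimals, 4 of the 9 for Mef2d and 3 for Mef2a, as did at least 2 arrays for 53.3% of all genes. The part of these equal values in the results was not tested.

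**Figure D3:**
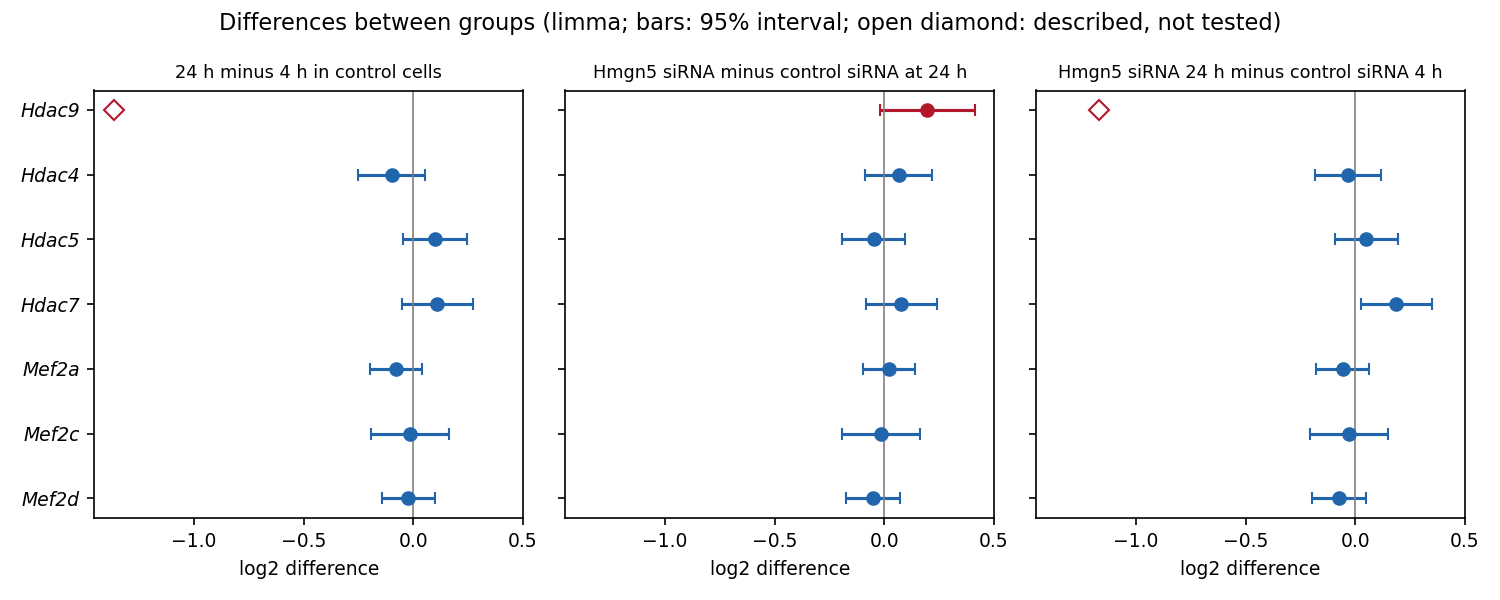
Differences between groups (log2 units, horizontal axis) for the 7 genes in 3 comparisons, 1 per panel, from the limma fit over all 9 arrays, with bars for 95% intervals and open diamonds for Hdac9 where it is described and not tested. Hdac9 lies at −1.37 and −1.17 in the comparisons with 4 h and at 0.20 between siRNAs, and the other genes lie within 0.19 of 0 in all panels.

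Lowering Hmgn5 was followed by no called change in any of the 7 genes at 24 h, where 0.0135% of all genes were called (3 genes: Hmgn5 lower, and Igfbp5 and Pltp higher, the last 2 named after their values were seen). At an unadjusted p under 0.05 the limma fit also gave 0 of the 7, where 5.25% of all genes had such a p. Hdac9 was 0.20 log2 units higher with Hmgn5 siRNA than with control siRNA (SE 0.10, 95% interval −0.02 to 0.41, limma adjusted p = 0.979). That is 115% of the control signal. The lowest Hmgn5 siRNA array, at 7.24, lay above the highest control array, at 7.22, by 0.017. The order of the 3 group levels was thus control 4 h, Hmgn5 siRNA 24 h and control 24 h, of which the last pair did not differ beyond its spread by the test. This comparison shares the 24 h control arrays with the one that singled out Hdac9.

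Among the other genes, Hdac7 differed by 0.08 between siRNAs (95% interval −0.08 to 0.24), Hdac4 by 0.07 (−0.09 to 0.22) and Mef2a by 0.02. Mef2d was at −0.05 (95% interval −0.17 to 0.07) and Hdac5 also at −0.05. Mef2c was at −0.01, with a sign that turned under cyclic loess normalization and with the mean of its probe sets. Adjusted p-values of the 7 ran from 0.979 to 0.999, and the median difference was 0.02 beside −0.00 over all genes. Groups did not overlap for 2 of the 7, Hdac9 and Mef2d, where 12.3% of all genes had such groups.

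The remaining comparison, Hmgn5 siRNA at 24 h against control siRNA at 4 h, differs in siRNA and time at once and shares arrays with both others. Hdac9 was lower by a difference of −1.17 (44.5% of the 4 h signal, 2.25-fold), a description as before, and 4 genes of 22180 had a difference further below 0 (Mt2, Rny1, Agtr2 and Slc38a3, named after their values were seen). Hdac7 was higher by 0.19 (95% interval 0.03 to 0.35), without passing the adjustment over all genes (adjusted p = 0.236). Its 3 Hmgn5 siRNA arrays all lay above its 3 control 4 h arrays. Mef2d was at −0.07 (adjusted p = 0.575), Mef2a at −0.06 (adjusted p = 0.678), Hdac5 at 0.05, Hdac4 at −0.03 and Mef2c at −0.03, the last 2 turning to 0.02 under median centring. Of these 6 genes 0 were called by limma, where 2.57% of all genes were, and 1, Hdac7, had an unadjusted p under 0.05, where 15.7% of all genes had one. Groups did not overlap for 3 of the 6 (Hdac7, Mef2a and Mef2d), where 18.9% of all genes had such groups.

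The genes around Hdac9 and MEF2 were taken from 10 lists: other deacetylases, corepressor partners, kinases and 14-3-3 proteins that act on class IIa deacetylases, the signalling upstream of MEF2, MEF2 cofactors, and MEF2 targets of neurons and of muscle. They held 114 genes, of which 106 had a probe set of their own. Over time in control cells 1 was called higher, Klf6, and 4 lower, Srf, Sirt1, Map2k3 and Des, which together make 4.72% beside 4.34% of all genes. Their median difference was 0.00. Between siRNAs limma called 0 of the 106, and 6 (5.66%) had an unadjusted p under 0.05, beside 5.25% of all genes. In Hmgn5 siRNA cells at 24 h against control cells at 4 h the same 5 genes were called in the same directions, which is 4.72% beside 2.57% of all genes, and the comparisons share the 4 h arrays. There the calls of Sirt1, Map2k3 and Des (adjusted p = 0.0215, 0.0399 and 0.0133) were lost in 7, 11 and 3 of 18 alternatives, among them the fit of only those 2 groups (0.0519, 0.120 and 0.0696).

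None of the other deacetylases that need zinc passed the test over time, 0 of 7, where 4.34% of all genes did. Of these 7, 1 gene, Hdac11, had an unadjusted p under 0.05, where 18.0% of all genes had one. In class I, whose members are the catalytic cores of the large nuclear corepressor complexes, Hdac1 was at 0.07 and Hdac2 at 0.03, and the median of the 4 genes was 0.02. For Hdac1, control 4 h replicate 2, the array with the low weight, read 8.70 beside 9.29 and 9.32. Those other 4 h arrays lay above its control 24 h arrays, at 9.10, 9.24 and 9.19. In classes IIb and IV, all 3 genes lay above 0, with Hdac11 at 0.45 (adjusted p = 0.0939) and Hdac6, the tubulin deacetylase, at 0.28 (adjusted p = 0.369). Between siRNAs Hdac1 was at 0.24, Hdac2 at 0.09, and Hdac10 and Hdac11 both at −0.18, with the smallest of their adjusted p-values at 0.979.

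The sirtuins, deacetylases that use NAD, had 1 called gene of 7 over time, where 4.34% of all genes were called. Sirt1 read 8.19, 8.16 and 8.21 at 4 h, 7.80, 7.82 and 7.63 in control cells at 24 h, and 7.78, 7.83 and 7.83 with Hmgn5 siRNA. All 24 h arrays lay below all 4 h arrays, and Sirt1 fell by 0.43 on the log2 scale in control cells (SE 0.07, adjusted p = 0.00832). The median of the list was 0.14, on the other side of 0. Between siRNAs Sirt4 was at 0.09 and Sirt1 at 0.07.

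Neither the corepressor partners nor the kinases nor the 14-3-3 proteins gave a called gene over time or between siRNAs in the fit of all arrays. The shares of all genes called were 4.34% and 0.0135%. Of the partners in the corepressor complex with Hdac3, 4 were measured (Tbl1x, Tbl1xr1, Gps2 and Hdac3), and their median time difference was 0.00. All 4 lay above 0 between siRNAs, with Tbl1x, an exchange factor of the complex, at 0.13 (adjusted p = 0.926). Of 21 kinases that phosphorylate class IIa deacetylases, Camk4, a calcium/calmodulin kinase of the nucleus, had the smallest p over time at 0.50 (adjusted p = 0.0646), followed by Mark4 at 0.42 (adjusted p = 0.150), and the median was 0.03. Camk4 did pass with array weights (0.39, adjusted p = 0.0315), with the dimmest genes removed (0.0454), with cyclic loess (0.0393) and without control 4 h replicate 1 (0.0456), and was at 0.26 with the mean of its probe sets (0.172). In 14 of 18 alternatives it stayed uncalled, with adjusted p-values up to 0.193. At 4 h Camk4 read 8.49, 7.97 and 8.38, lowest in replicate 2, the array with the low weight. Between siRNAs Sik1 was at 0.13 and Sik3 at −0.12. Of the 7 genes for 14-3-3 proteins, Ywhah was at 0.25 over time (adjusted p = 0.0925) and Sfn at −0.21 (adjusted p = 0.159), and between siRNAs Ywhag was at 0.11 and Ywhab at −0.06.

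Upstream of MEF2, 12 of 16 listed genes were measured, and over time 4.34% of all genes were called. The called gene of this list was Map2k3, a kinase that activates p38. It read 9.24, 8.98 and 9.20 at 4 h, 8.70, 8.57 and 8.69 in control cells at 24 h, and 8.67, 8.73 and 8.83 with Hmgn5 siRNA. The groups of the 2 times did not overlap, and Map2k3 fell by 0.49 on the log2 scale (SE 0.08, adjusted p = 0.0135), a call that was lost without control 24 h replicate 2 (adjusted p = 0.0585) and in a fit of only those 2 groups (adjusted p = 0.0548). The list's median was 0.07. Between siRNAs Mapk14, which encodes p38 alpha, was at 0.13 (adjusted p = 0.944) and Ppp3ca, a catalytic subunit of calcineurin, at −0.10.

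Of the cofactors and competitors of MEF2, 14 of 15 were measured and Srf was called over time, where 4.34% of all genes were. The list median was −0.06. Srf, the MADS-box factor of immediate early and cytoskeletal genes, read 9.60, 9.60 and 9.59 at 4 h, 8.82, 8.88 and 8.77 in control cells at 24 h, and 9.06, 9.04 and 8.88 with Hmgn5 siRNA. Both 24 h groups lay below all 4 h arrays. Srf fell by 0.77 on the log2 scale in control cells (SE 0.07, adjusted p = 0.000547). Between siRNAs it was at 0.17 (adjusted p = 0.926), the smallest p of the list, and Nfatc1 was at −0.13.

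Of the MEF2 target genes of neurons, 17 of 18 were measured and 1 was called over time, as higher, where 4.34% of all genes were called. The list median was −0.03. Klf6, a zinc-finger factor of neurite growth, read 9.44, 9.29 and 9.47 at 4 h, 9.79, 9.82 and 9.85 in control cells at 24 h, and 10.08, 10.11 and 10.28 with Hmgn5 siRNA. The 3 groups did not overlap. Klf6 rose by 0.42 over time (SE 0.07, adjusted p = 0.0159), a call lost without any one of the control 24 h arrays 1, 2 or 3 (adjusted p = 0.0555, 0.0595 and 0.0630), while between siRNAs it was at 0.34 (adjusted p = 0.458) and Pcdh17, a protocadherin, at 0.39 (adjusted p = 0.830).

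Of the 18 MEF2 target genes of muscle, all were measured and 1 was called over time, as lower, where 4.34% of all genes were called. The list median was 0.01. Des, the intermediate filament desmin, read 7.08, 6.66 and 7.01 at 4 h, 5.95, 6.13 and 5.92 in control cells at 24 h, and 6.21, 5.90 and 6.21 with Hmgn5 siRNA. No 24 h array reached the lowest 4 h array, and Des fell by 0.92 on the log2 scale (SE 0.13, adjusted p = 0.00575). Between siRNAs Mb, myoglobin, was at −0.26 and Pgam2 at −0.19 (adjusted p = 0.979 for the latter). Beside Des, the 10 muscle markers had array means of 5.65 to 5.75 over all 9 arrays, and 1 of them, Actn2, was at −0.51 over time (adjusted p = 0.0593) and was called lower in Hmgn5 siRNA cells against control 4 h (adjusted p = 0.0480). Their part in the Des difference was not tested.

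**Figure D4:**
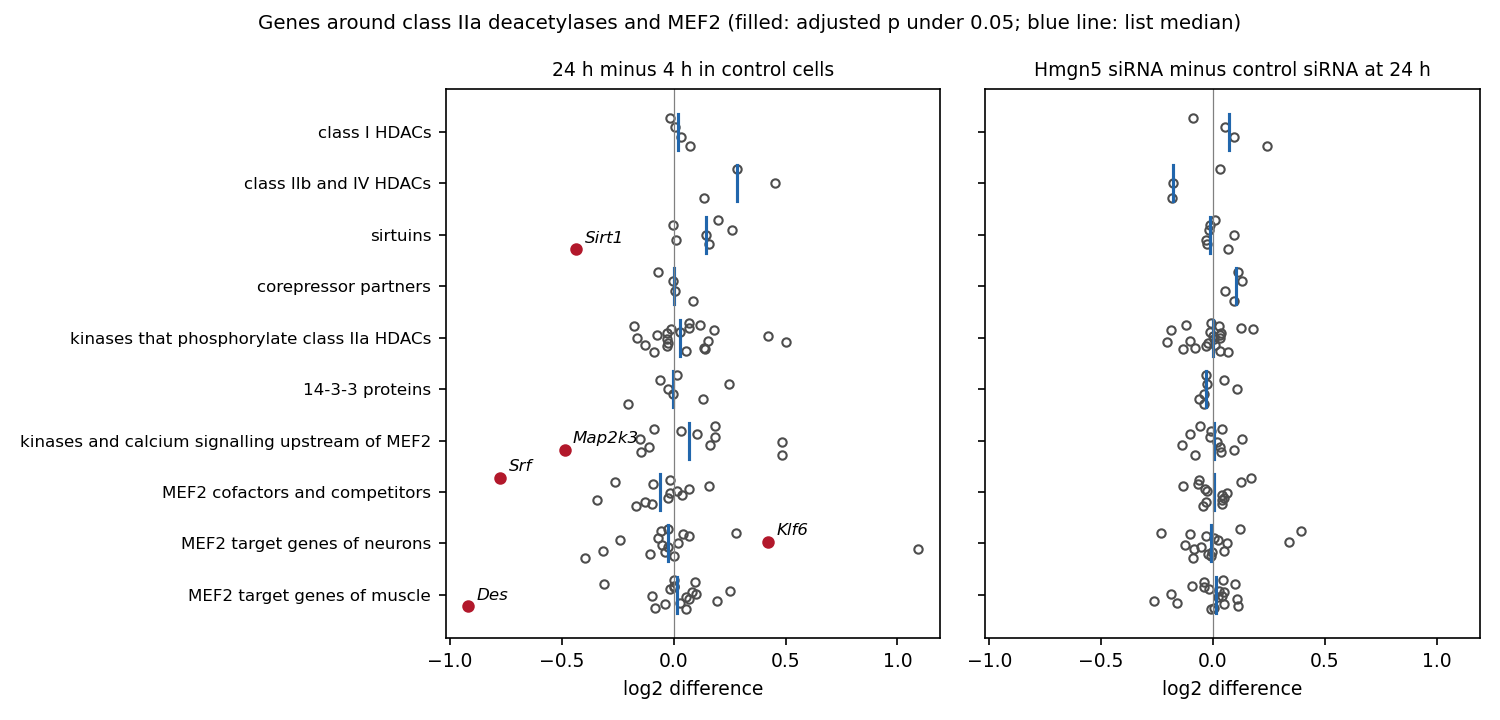
Points give the log2 difference (horizontal axis) of each measured gene of the 10 lists, 1 row per list, over time in the left panel and between siRNAs in the right, with called genes filled and a line for the list's median. The called genes over time are Klf6 above 0 and Srf, Sirt1, Map2k3 and Des below it, with medians between −0.06 and 0.28, and no gene is filled between siRNAs.

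The genes whose pattern over the 9 arrays was most like that of Hdac9 were Urb1 (Pearson's r = 0.985), Btaf1 (0.984), Pde5a (0.983), Nup153 (0.983), Srf (0.983) and Nol8 (0.983), among 2587 genes with an SD of at least 0.2. Most opposite were Parp3 (r = −0.994), Cpq (−0.988) and Pgf (−0.986). The Hdac9 signal was high in the 4 h arrays and low in the 24 h arrays, and Hdac9 was picked for that step. These values of r therefore largely describe the same step and carry no p. Within the 6 arrays at 24 h, r with Hdac9 was 0.919 for Urb1, 0.748 for Btaf1, 0.874 for Pde5a, 0.872 for Nup153, 0.811 for Srf and 0.650 for Nol8. There it was −0.826 for Parp3, −0.951 for Cpq and −0.849 for Pgf. These genes were picked by r over arrays that include the same 6, so the choice favours such values. The 6 arrays also hold both siRNA groups, so r within them mixes differences between and within groups.

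Over time these genes were at −0.55 for Urb1, −0.64 for Btaf1, −1.03 for Pde5a, −0.46 for Nup153 and −0.64 for Nol8, and at 1.13 for Parp3, 0.58 for Cpq and 1.22 for Pgf. Pde5a, the phosphodiesterase of cyclic GMP, had the largest fall in value among the 6 chosen for likeness. For the relatives of Hdac9, which lie under the SD minimum of that choice, r with Hdac9 over the 9 arrays was 0.81 for Mef2a, 0.52 for Mef2d, 0.38 for Hdac4, 0.15 for Mef2c, −0.60 for Hdac7 and −0.61 for Hdac5. Within the 6 arrays at 24 h it was 0.85 for Hdac7, 0.21 for Mef2c, 0.01 for Mef2a, −0.15 for Hdac5, −0.16 for Hdac4 and −0.71 for Mef2d. The signs for Hdac7, Hdac4 and Mef2d thus differed between all 9 arrays and the 24 h arrays.

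**Figure D5:**
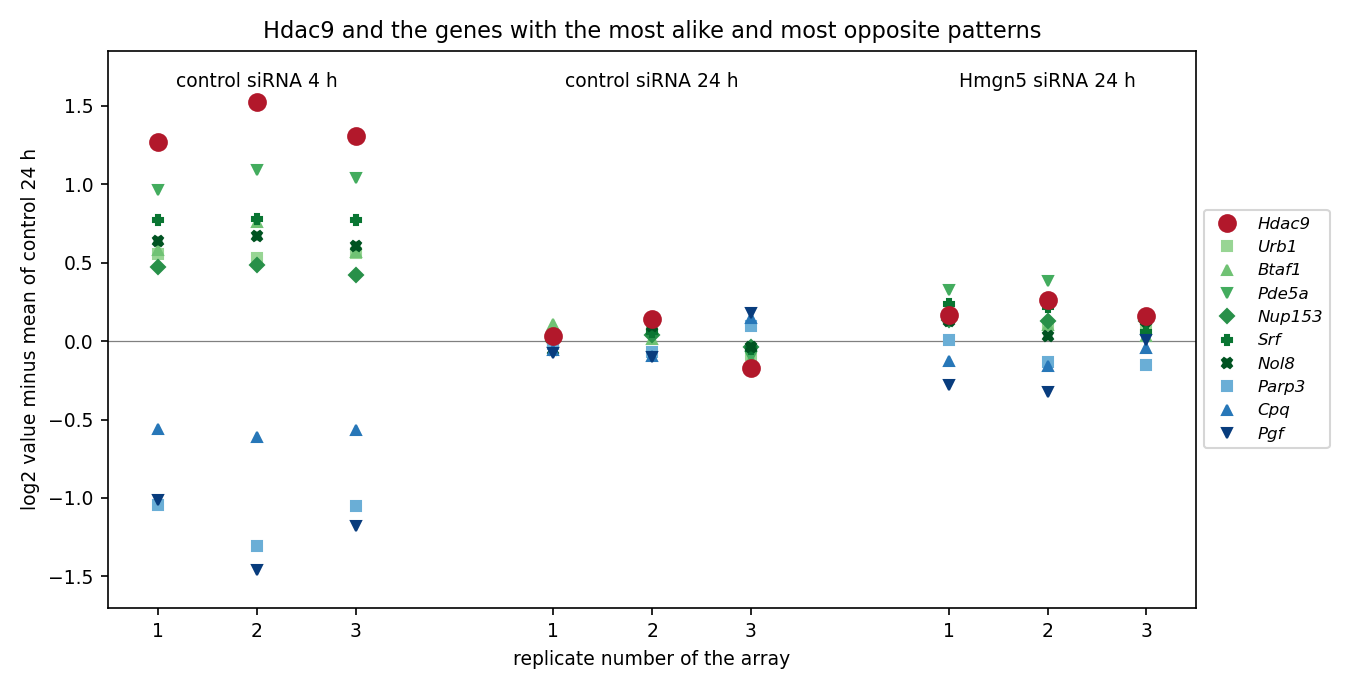
Level minus the gene's mean in the control 24 h arrays (log2 units, vertical axis) on each of the 9 arrays, by group and replicate number (horizontal axis), for Hdac9, the 6 genes most like it and the 3 most opposite. Hdac9 takes the widest step down between the control 4 h and control 24 h arrays, by −1.37, and Pgf and Parp3 step up by 1.22 and 1.13.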

How the data were processed

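The deposited table gives log2 levels for the probe sets of Affymetrix whole-transcript arrays, made by the authors with RMA in oligo, per the submitters' processing notes, with versions not given in the sources used here. RMA makes the arrays' distributions alike, so a shift of most genes together would be hidden. The table held 41345 probe sets, of which 23521 had 1 gene symbol in the platform annotation, 1814 several and 16010 none, and only those with 1 were used. A gene with several probe sets (1082 genes) was represented by the brightest.

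Tests used limma 3.58.1 in R 4.3.3 (lmFit and eBayes, group means, all 9 arrays in 1 fit, 9.55 total degrees of freedom), with Benjamini-Hochberg adjustment over 22180 genes and calls at 0.05. An exact permutation test of 3 arrays against 3 cannot go below p = 0.1, and the number of arrays limits the precision. The steps were tested on simulated data. The genes and lists were chosen with earlier results of these data known. Named genes are the 7 members, Hmgn5, the genes neighbouring Hdac9, those most like or opposite it in pattern, and from each list the called genes (up to 4 per comparison) or, with none called, the 2 with the smallest p. Ddc, Actn2, Th, Dbh, Jun and genes said to be unmeasured or named after their values were seen stand outside that rule. Alternatives were a block for the replicate number, a fit of 2 groups, trend and robust eBayes, array weights, a filter on the dimmest 33% of genes, cyclic loess, median centring, the mean over all probe sets per gene, no empirical Bayes step, a minimum change of 1.1-fold and leaving out each array. Samples with the same replicate number were alike only weakly: correlations of their deviations from the group means ran from 0.0085 to 0.285. The 2 of 9 over 0.1, at 0.184 and 0.285, were both between the 24 h groups. A pairing at 24 h thus cannot be set aside. With the replicate number as a block in limma, the SE of the Hdac9 difference between siRNAs went from 0.096 to 0.072 (adjusted p = 0.824).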

Additional observations from a re-analysis of the deposited data

How the results depend on the processing

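Counts of calls over all genes moved with the settings. In each of 19 alternatives 0 of the 6 relatives of Hdac9 were called over time, and 0 of all 7 between siRNAs. In the main fit 4.34% and 0.0135% of all genes were called in these comparisons. A count of 0 among so few genes is near those shares. Hdac9 stayed between −1.44 and −1.28 over time, −1.22 and −1.09 against control 4 h, and 0.11 and 0.27 between siRNAs. Those ranges come from array weights, cyclic loess, median centring and leaving out an array of the groups compared. The other settings cannot move the Hdac9 difference. The 963 genes called over time became 280 in a fit of 2 groups, 1685 with array weights, 480 without empirical Bayes, 235 with a 1.1-fold minimum and 310 to 1238 with an array left out, and their 481 higher and 482 lower became 477 and 309 with median centring. The 3 called between siRNAs became 5 with trend and robust eBayes, 7 with array weights, 1 with a 1.1-fold minimum, 0 to 2 with an array left out, and 0 without empirical Bayes in limma (1164 in the full fit at an unadjusted p under 0.05). The 569 called against control 4 h became 113, 1226, 255 and 120 under the settings listed first, and 165 to 784 with an array left out. With the replicate number as a block the counts were 893, 1 and 505, and no call among the 7 genes changed. Differences near 0 changed sign: Mef2c between siRNAs (0.0015 with cyclic loess, 0.0094 with the mean of probe sets, −0.0743 to 0.0708 with an array left out), Mef2c over time (0.0247 with median centring, −0.0384 to 0.0209 left out), Mef2d over time (0.0168 with median centring, −0.0362 to 0.0046 left out), Hdac4 against control 4 h (0.0155 with median centring), Mef2c there (0.0191, and −0.0889 to 0.0561 left out), Hdac5 there (−0.0016 to 0.0813 left out) and Jun between siRNAs (−0.164 to 0.0081 left out). The filter on dim genes removed Mef2c. Calls over time of Srf, Sirt1 and Des held in all 18 alternatives that gave them a p, while in Hmgn5 siRNA cells against control 4 h those of Sirt1, Map2k3 and Des were lost in 7, 11 and 3. The cause of these shifts was not tested.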

Other observations

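The genes next to Hdac9 in RefSeq gene order did not share its difference in size. On one side lie Twistnb, Ferd3l and Twist1, and on the other Prps1l1, Snx13 and Ahr. Twistnb, a subunit of RNA polymerase I, was 9.08 ± 0.07 at 4 h and 8.59 ± 0.14 at 24 h in control cells (SD, n = 3 each) and fell by 0.49 on the log2 scale (limma adjusted p = 0.0234), a call lost without control 24 h replicate 1 (0.0942) or 3 (0.0908) or control 4 h replicate 3 (0.0641), in a fit of 2 groups (0.0548) and without empirical Bayes (0.0843). Its distance in size from the −1.37 of Hdac9 was not tested. The other 5 were not called over time: Ferd3l was at 0.11, Twist1 at 0.08 (adjusted p = 0.668), Prps1l1 at −0.05, Snx13 at −0.17 (adjusted p = 0.336) and Ahr at −0.02. None of the 6 was called between siRNAs.

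Jun, an immediate early gene on the list of neuronal MEF2 targets, stood just outside the threshold over time and was singled out after its values were seen. Control 4 h replicate 2 read 8.33 where the other 4 h arrays read 9.56 and 9.39, and the 24 h control arrays read 10.16, 10.02 and 10.37. The difference was 1.09 (adjusted p = 0.0508), and 0.71 without that array (adjusted p = 0.0100). It passed in 7 of 18 alternatives, with adjusted p-values from 0.0100 to 0.182.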
